A study of Mus musculus with 16 samples.

Results

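MHC class I antigen presentation was described with 10 genes: the classical heavy chains H2-K1 and H2-D1, the non-classical heavy chain H2-T23, the light chain B2m, the peptide transporter subunits Tap1 and Tap2, the loading chaperones Tapbp and Pdia3, the trimming peptidase Erap1, and the transcriptional activator Nlrc5. These members were taken by symbol from a table of 52636 genes, and all 10 were among the 18587 genes with enough counts to be tested. Mouse pancreatic islets were isolated from male mice aged 12 weeks, of a strain that the sample labels give as C57BL/6JRj and the study's methods as C57BL/6NRj, and were cultured for 10 days in medium with human serum. They were left unexposed (control), or exposed to 50 pg/mL recombinant mouse IL-1β, an inflammatory cytokine, to 0.2 mM sodium butyrate, a fermentation product of dietary fibre known as a histone deacetylase inhibitor, or to both. Each of the 4 conditions had 4 RNA-seq libraries, each from 500 islets pooled over mice, so that p-values measure the spread between islet preparations and not between single mice. The 16 libraries held between 18635943 and 25955943 gene counts, with a median of 22184715.

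MHC class I molecules carry short peptides from a cell's own proteins to its surface, where CD8+ T cells read them. Peptides are cut by the proteasome, pumped into the endoplasmic reticulum by the Tap1-Tap2 transporter, trimmed there by Erap1, and fitted into a heavy chain paired with B2m by a complex in which Tapbp (tapasin) bridges the transporter and the heavy chain and Pdia3 (ERp57) acts beside it. Nlrc5 raises transcription of many of these genes together. Islets are known to display more class I in autoimmune diabetes.

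Most members are neighbours in the genome. By the GENCODE M21 annotation of GRCm38, 6 of the 10 lie in the MHC on chromosome 17. H2-K1 (ENSMUSG00000061232) is at chr17:33996017-34000347 on the minus strand, H2-D1 (ENSMUSG00000073411) at chr17:35262730-35267499 on the plus strand and H2-T23 (ENSMUSG00000067212) at chr17:36029773-36032855 on the minus strand. Tap1 (ENSMUSG00000037321) is at chr17:34187553-34197225, Tap2 (ENSMUSG00000024339) at chr17:34203527-34216321 and Tapbp (ENSMUSG00000024308) at chr17:33915899-33929292, each on the plus strand. Outside the MHC, and on the plus strand, lie B2m (ENSMUSG00000060802) at chr2:122147686-122153083, Pdia3 (ENSMUSG00000027248) at chr2:121413775-121438687, Erap1 (ENSMUSG00000021583) at chr13:74639568-74693201 and Nlrc5 (ENSMUSG00000074151) at chr8:94434356-94527272. All are protein-coding.

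The classical class I genes are known for a shared upstream arrangement, and the sequences before the starts of 5 members are printed because the heavy chains, the light chain, the transporter and the trimming peptidase responded differently to the exposures described later. RefSeq windows on GRCm38.p6 were found for 8 of the 10 members, with Tap2 and Nlrc5 having none in the table. Their starts are those of RefSeq and can differ from the GENCODE gene starts. The windows of H2-D1, Erap1 and Tapbp lie inside the GENCODE spans of these genes. Each sequence is the 250 bases before the start, read 5′ to 3′ on the gene's own strand, with matches to the searched motifs in capitals.
B2m (chr2:122147437-122147686, plus strand): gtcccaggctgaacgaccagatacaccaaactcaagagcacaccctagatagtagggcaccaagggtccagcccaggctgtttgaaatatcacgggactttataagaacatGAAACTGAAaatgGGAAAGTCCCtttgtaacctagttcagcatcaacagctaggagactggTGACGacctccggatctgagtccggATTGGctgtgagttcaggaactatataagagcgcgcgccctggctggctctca
H2-K1 (chr17:34000348-34000597, minus strand): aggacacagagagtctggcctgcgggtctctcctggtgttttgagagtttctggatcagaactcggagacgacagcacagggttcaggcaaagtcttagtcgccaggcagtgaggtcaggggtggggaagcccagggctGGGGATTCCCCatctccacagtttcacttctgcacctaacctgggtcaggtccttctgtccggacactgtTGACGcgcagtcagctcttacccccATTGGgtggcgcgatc
H2-D1 (chr17:35262844-35263093, plus strand): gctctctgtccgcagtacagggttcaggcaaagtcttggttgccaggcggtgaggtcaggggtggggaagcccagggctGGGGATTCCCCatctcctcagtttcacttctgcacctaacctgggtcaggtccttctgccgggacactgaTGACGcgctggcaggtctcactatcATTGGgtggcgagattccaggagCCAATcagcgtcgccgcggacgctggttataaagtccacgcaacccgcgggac
Tap1 (chr17:34187306-34187555, plus strand): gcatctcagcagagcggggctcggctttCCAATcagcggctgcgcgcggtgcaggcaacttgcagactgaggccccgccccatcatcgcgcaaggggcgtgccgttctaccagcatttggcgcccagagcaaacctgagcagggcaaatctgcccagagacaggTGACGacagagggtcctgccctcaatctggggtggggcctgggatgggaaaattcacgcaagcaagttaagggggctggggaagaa
Erap1 (chr13:74639603-74639852, plus strand): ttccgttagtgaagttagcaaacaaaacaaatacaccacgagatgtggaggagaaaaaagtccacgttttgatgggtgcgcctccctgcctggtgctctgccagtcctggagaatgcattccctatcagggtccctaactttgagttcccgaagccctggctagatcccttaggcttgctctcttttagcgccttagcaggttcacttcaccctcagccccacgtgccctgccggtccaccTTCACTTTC

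In these sequences H2-K1, H2-D1 and B2m each held a match to the κB consensus, then a TGACG (the half-site bound by CREB and ATF factors), then a CCAAT in either orientation, in that order towards the start. Counted back from the start, with -1 as the base before it, the TGACG began at -41 in H2-K1, -101 in H2-D1 and -78 in B2m. The κB match began at -111 in H2-K1 and at -171 in H2-D1, where in each gene it holds a second match shifted by 1 base, and at -126 in B2m. H2-K1 has another RefSeq window, not printed, in which the TGACG began at -55 and the κB match at -125. B2m alone of these 3 also matched GAAANNGAA, the spelling searched for the interferon-stimulated response element core, at -139. Erap1 matched it on the other strand at -9, overlapped by another match that runs past the start. Elements of another spelling or spacing were not searched for. After the κB match both H2-K1 and H2-D1 hold tttcacttc, which that spelling does not match, so such an element in them was not tested. Tap1 had a CCAAT at -222 and a TGACG at -86, and 225 of its 250 bases are shared, on the opposite strand, with the window of Psmb9, the immunoproteasome subunit that is transcribed away from it.

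Over the full search window of 300 bases (250 before and 50 after the start, both strands), CCAAT was found in 7 of the 8 members and in 37.4% of all 32851 windows in the table. TGACG was found in 5 of the 8 members and in 20.8% of all windows. The κB consensus was found in 3 members and 8.46% of all windows, and GAAANNGAA in 3 members (B2m, H2-T23 and Erap1) and 8.56%. Among the members whose windows are not printed, Tapbp had a CCAAT on the other strand at -248 and -165 and no match to TGACG, GAAANNGAA or the κB consensus. H2-T23 had GAAANNGAA on the other strand at -123 and a CCAAT at -52. Pdia3 had a CCAAT at -79 and -29 and a TGACG at -37. A match is a description of letters, no binding was measured, and no link between matches and responses was tested.

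Levels in control islets spanned a wide range. Per kilobase of exon at equal depth (RPKM, which lets genes of different length be set side by side), Pdia3 stood at 509 ± 12.2 (SD, n = 4), H2-K1 at 140 ± 4.89, H2-D1 at 98.8 ± 3.42 and Tapbp at 43.4 ± 2.999. Below them came B2m at 18.8 ± 1.84, H2-T23 at 14.5 ± 1.12, Erap1 at 10.4 ± 0.237, Tap2 at 5.47 ± 0.345, Tap1 at 2.53 ± 0.251 and Nlrc5 at 0.0734 ± 0.0215. The activator Nlrc5 was thus the scarcest member, with 8 to 17 counts per control library. B2m, which pairs with every heavy chain, stood at 18.8 RPKM beside 140 for H2-K1 and 98.8 for H2-D1. Its exons overlapped no other gene and shared no 50-base stretch with one. In raw counts it had 2.44 ± 0.293 for each 100 counts of H2-K1 and H2-D1 together. That ratio is not corrected for the shorter exons of B2m (860 bases, against 2938 for H2-K1 and 2579 for H2-D1).

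IL-1β raised most of the pathway. The comparison with control islets asked which genes prolonged low-dose IL-1β changes. Of the 10 members, 8 were significantly raised at an adjusted p under 0.01 (edgeR quasi-likelihood test, Benjamini-Hochberg adjustment over all genes tested), where 11.2% of all genes tested were raised. The median log2 fold change was 0.73 over the members and -0.03 over all genes tested. The count of members lowered was 0, at an unadjusted p under 0.05 and by DESeq2 as well, where 6.59% of all genes tested were lowered by edgeR. The largest change was that of Nlrc5 and the next that of B2m, while Tap1 and Pdia3 did not pass the test.

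The heavy and light chains rose by different amounts. B2m stood at 14.2, 16.4, 15.9 and 18.1 CPM (counts relative to library size, scaled by TMM) in the 4 control libraries and at 41.9, 51.4, 47.1 and 45.8 in the 4 IL-1β libraries. Its lowest IL-1β library was thus far above its highest control, a 2.88-fold rise (log2 fold change 1.53 ± 0.07 SE, edgeR adjusted p = 2.3e-15). H2-T23, the non-classical chain that presents leader peptides to natural killer cell receptors, stood at 43.4, 45.5, 38.5 and 39.9 CPM in control and at 78.2, 98.4, 79.0 and 81.5 CPM with IL-1β. That was a 2.02-fold rise with no overlap (log2 1.01 ± 0.08, edgeR adjusted p = 7.2e-09).

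H2-D1 and H2-K1, the abundant chains that present peptides to CD8+ T cells, rose less. H2-D1 stood at 265, 259, 249 and 247 CPM in control and at 404, 459.9, 395 and 412 CPM with IL-1β, a 1.64-fold rise (log2 0.71 ± 0.05, edgeR adjusted p = 1.2e-11). H2-K1 stood at 424, 419, 393 and 403 CPM in control and at 589, 657, 571 and 583 CPM with IL-1β, a 1.46-fold rise (log2 0.55 ± 0.05, edgeR adjusted p = 9.5e-10). Neither gene had a control library within the IL-1β range. The ratio of B2m to the summed counts of both chains accordingly moved from 2.44 ± 0.293 to 4.58 ± 0.267 per 100 (SD, n = 4), and the ratio of H2-D1 to H2-K1 counts from 0.622 ± 0.00951 to 0.696 ± 0.00904, each without overlap between the conditions. Of the 50-base stretches in these transcripts, 9.63% of H2-K1, 12.8% of H2-D1 and 14.5% of H2-T23 are shared with other genes, mostly class I relatives, and how the counting split such reads is not given in the sources used here.

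Nlrc5 stood at 0.373, 0.667, 0.812 and 0.642 CPM in control and at 1.97, 2.48, 2.49 and 2.38 CPM with IL-1β. Every IL-1β library was above every control, a 3.71-fold rise (log2 1.89 ± 0.22, edgeR adjusted p = 1.2e-07), but at these counts its 95% interval on the log2 scale ran from 1.45 to 2.34.

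**Figure D1:**
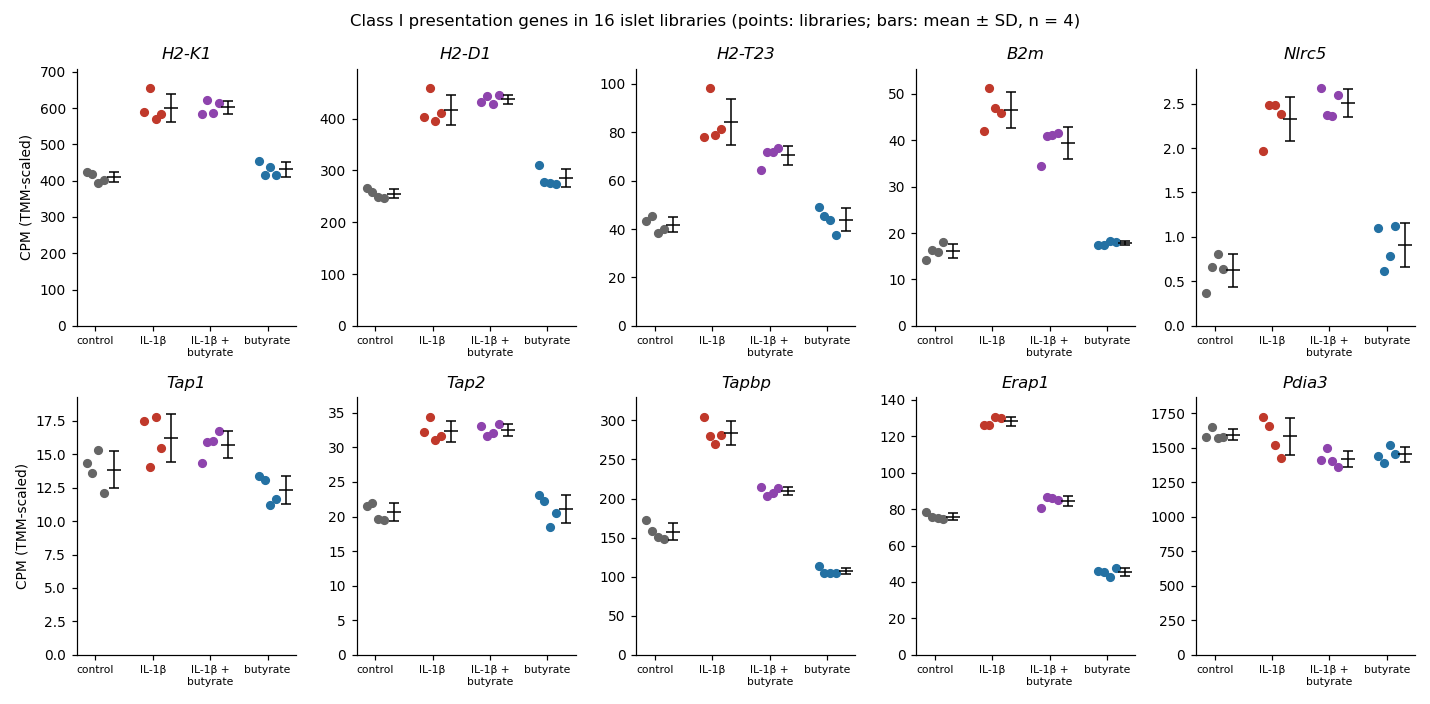
TMM-scaled CPM of the 10 class I presentation genes (vertical axes start at 0 and differ between panels) in each of the 16 libraries, by condition; points are libraries, and bars beside them give the mean ± SD of 4. The butyrate libraries of Erap1, Tapbp and Pdia3 all lie under their control libraries, and H2-K1, H2-D1, Tap2 and Nlrc5 overlap between IL-1β and IL-1β plus butyrate.

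The transporter subunits differed. Tap2 stood at 21.6, 22.01, 19.7 and 19.4 CPM in control and at 32.2, 34.5, 31.1 and 31.6 CPM with IL-1β, a 1.56-fold rise with no overlap (log2 0.64 ± 0.06, edgeR adjusted p = 5.2e-09). Tap1 stood at 14.3, 13.6, 15.3 and 12.1 CPM in control and at 17.5, 14.02, 17.8 and 15.5 CPM with IL-1β. These ranges overlapped, and its log2 difference of 0.23 ± 0.08 did not pass the threshold (edgeR adjusted p = 0.047). Per kilobase, the ratio of Tap1 to Tap2 was 0.463 ± 0.0518 in control and 0.348 ± 0.0506 with IL-1β, without overlap (SD, n = 4). The exons of Tap1 and Tap2 are overlapped on the opposite strand over 3.87% (by Psmb9) and 18.5% of their length, and since the kit is not described as stranded such reads cannot be assigned to one partner.

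The loading and trimming genes also split. Tapbp stood at 173, 158, 151 and 148 CPM in control and at 305, 280.5, 269 and 282 CPM with IL-1β, a 1.80-fold rise (log2 0.85 ± 0.05, edgeR adjusted p = 2.2e-13). Erap1 stood at 78.4, 75.7, 75.3 and 74.4 CPM in control and at 126.0, 126.2, 130.9 and 130.0 CPM with IL-1β, a 1.69-fold rise (log2 0.76 ± 0.04, edgeR adjusted p = 8.5e-14). Neither gene's conditions overlapped. Pdia3, which also folds glycoproteins other than class I, stood at 1582, 1654, 1572 and 1578 CPM in control and at 1728, 1661, 1520 and 1426 CPM with IL-1β. Its IL-1β libraries spread on both sides of control, with a log2 difference of -0.01 (95% interval -0.12 to 0.10, edgeR adjusted p = 0.90). Opposite-strand genes overlap 24.9% of the exon length of Tapbp and 11.5% of that of Erap1 (by Cast), and Tapbp shares 23.2% of its 50-base stretches with other genes.

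Markers of white blood cells moved with the class I genes. The summed level of 12 leukocyte markers was 21.9 to 32.2 CPM in control and 90.7 to 157 CPM with IL-1β, each of the 12 was raised, and 0 of the 12 were at 0 in any condition. Lyz2, a macrophage lysozyme, contributed the most. The sum of 8 acinar markers was 0.542 to 3.34 CPM in control and 3.10 to 14.9 CPM with IL-1β. In whole islets fewer cells of a type and less RNA per cell cannot be told apart, and the part of leukocytes or other cells in the class I rise was not tested. The 6 duct markers summed to 358 to 387 CPM in control and to 408 to 474 CPM with IL-1β, and their part was not tested either. Beta cells, the main cells of the labelled tissue, were present by their markers, 9 of which summed to 214600 to 237400 CPM in control and to 137900 to 179600 CPM with IL-1β.

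Butyrate added to IL-1β lowered a subset. In this comparison, which asks what butyrate changes in islets exposed to IL-1β, 3 of the 10 members were lowered, Erap1, Tapbp and B2m, where 11.1% of all genes tested were lowered. By DESeq2 4 were lowered, with H2-T23 added (DESeq2 adjusted p = 0.0075). At an unadjusted p under 0.05 the count was 5, with Pdia3 added as well, where 21.4% of all genes were lowered. The count raised was 0, also at an unadjusted p under 0.05 and by DESeq2, where 8.41% of all genes were raised by edgeR. The median log2 fold change was -0.10 over the members and 0.01 over all genes. The classical heavy chains, the transporter and Nlrc5 did not pass the test, and their libraries overlapped between the conditions.

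Erap1 fell the most. Its 4 libraries with IL-1β plus butyrate stood at 80.7, 86.6, 85.9 and 85.0 CPM, all under the lowest IL-1β library at 126.0 CPM. It fell by 0.60 ± 0.04 on the log2 scale, to 0.659 of its IL-1β level (edgeR adjusted p = 3.5e-11). Tapbp stood at 215, 204, 207 and 213 CPM, against 269 CPM or more with IL-1β. It fell by 0.44 ± 0.05 on the log2 scale, to 0.738 of its IL-1β level (edgeR adjusted p = 1.3e-07). On the log2 scale the combination stood 79.6% of the way back from IL-1β to control for Erap1 and 51.5% for Tapbp, a description in which both differences share the IL-1β libraries.

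B2m stood at 34.4, 40.8, 41.0 and 41.6 CPM with IL-1β plus butyrate. All 4 were just under its lowest IL-1β library at 41.9 CPM, and it fell by 0.24 ± 0.07 on the log2 scale (edgeR adjusted p = 0.0068). That call was lost in 6 of 23 alternative analyses, among them without the lowest combination library (log2 -0.19, edgeR adjusted p = 0.029) and without either of 2 IL-1β libraries, replicate 2 (-0.19, adjusted p = 0.032) or replicate 3 (-0.25, adjusted p = 0.013). Over those alternatives the adjusted p ran from 0.00013 to 0.044. B2m per 100 counts of H2-K1 and H2-D1 was 3.80 ± 0.289 in the combination, under the 4.58 ± 0.267 of IL-1β and above the 2.44 ± 0.293 of control, without overlap.

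The other heavy chains did not pass. H2-T23 stood at 64.5, 71.9, 71.7 and 73.5 CPM in the combination, all under its IL-1β libraries, yet its log2 difference of -0.26 ± 0.08 had an edgeR adjusted p of 0.016, and 5 of 23 alternatives called it. H2-K1 stood at 585, 622, 588 and 613 CPM with a log2 difference of 0.01 (95% interval -0.09 to 0.10, edgeR adjusted p = 0.95). H2-D1 stood at 432, 443, 428 and 446 CPM with a log2 difference of 0.07 (interval -0.04 to 0.17, edgeR adjusted p = 0.34). All 4 libraries of both classical chains lay within their IL-1β ranges. Over the same conditions the leukocyte marker sum went from 90.7 to 157 CPM with IL-1β to 44.0 to 92.7 CPM in the combination, with 4 of its 12 markers lowered, and its part in the lower levels of Erap1, Tapbp and B2m was not tested. The sum of 10 T and NK cell markers was 3.26 to 5.11 CPM with IL-1β and 6.31 to 7.19 CPM in the combination, where Cd3d and Nkg7 had no count in any library. Of the 4 of these markers that could be tested, 1 was raised, Lck, from a mean of 1.67 to 3.96 CPM, while Cd4 had means of 0.247 and 0.0873 CPM and Trac of 0.518 and 0.283 CPM. The duct marker sum was 408 to 474 CPM with IL-1β and 361 to 393 CPM in the combination, with 1 of 5 tested markers lowered, and that of 7 alpha, delta and PP cell markers was 22340 to 27760 and 28820 to 31860 CPM. Neither pair of ranges overlapped, and the part of these cells was not tested.

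Neither the transporter nor the activator passed. Tap2 stood at 33.1, 31.6, 32.1 and 33.3 CPM in the combination (log2 difference 0.01, 95% interval -0.11 to 0.13, edgeR adjusted p = 0.92), and Tap1 at 14.3, 15.9, 15.98 and 16.7 CPM (log2 -0.04, interval -0.21 to 0.13, edgeR adjusted p = 0.75). Nlrc5 stood at 2.68, 2.38, 2.37 and 2.60 CPM (log2 0.10, interval -0.26 to 0.46, edgeR adjusted p = 0.71). Pdia3 stood at 1409, 1501, 1408 and 1364 CPM, and its log2 difference of -0.16 ± 0.05 had an edgeR adjusted p of 0.025. Its libraries overlapped those of IL-1β, and 4 of 23 alternatives called it lowered.

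**Figure D2:**
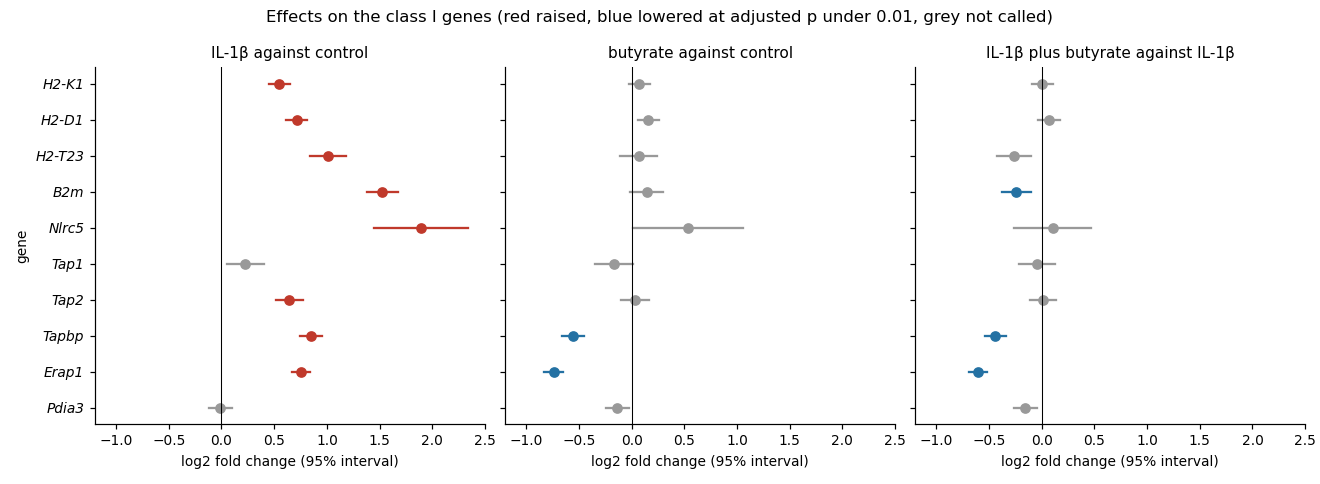
Log2 fold changes (points) with 95% intervals (lines) of the 10 members for IL-1β against control, butyrate against control and IL-1β plus butyrate against IL-1β, each from 4 against 4 libraries; red was raised and blue lowered at an edgeR adjusted p under 0.01, grey was not called. Erap1 and Tapbp are blue in both butyrate panels, at -0.74 and -0.56 without IL-1β and at -0.60 and -0.44 with it.

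Set against control islets, the combination left 8 of the 10 members raised, where 15.8% of all genes tested were raised. These comparisons share their control libraries with that of IL-1β against control. B2m was 2.44-fold, Nlrc5 3.99-fold, H2-D1 1.72-fold, H2-T23 1.68-fold, Tap2 1.57-fold, H2-K1 1.47-fold and Tapbp 1.33-fold higher than control, with edgeR adjusted p from 6.8e-14 for B2m to 2.9e-07 for H2-T23 among them. Erap1 was 1.11-fold higher (log2 0.15 ± 0.04, edgeR adjusted p = 0.0046), with all 4 combination libraries above the highest control, and lost its call in 7 of 23 alternatives, where the adjusted p ran from 0.00023 to 0.020 over all 23. The 7 were the analysis with no filter on low counts (adjusted p = 0.017) and those without control replicate 2, 3 or 4 or combination replicate 2, 3 or 4. The count lowered was 0 by edgeR, where 14.8% of all genes were lowered, and 1 by DESeq2, Pdia3 (log2 -0.17 ± 0.05, edgeR adjusted p = 0.012). At an unadjusted p under 0.05 the count lowered was 1, again Pdia3, where 23.1% of all genes were lowered.

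Butyrate alone lowered the trimming peptidase and tapasin. Erap1 and Tapbp were the 2 of the 10 members lowered, where 11.4% of all genes tested were lowered. With an unadjusted p under 0.05 the count lowered was 3, with Pdia3 added, where 21% of all genes were lowered. The median log2 fold change was 0.05 over the members and 0.01 over all genes. The count raised was 0 by edgeR, where 8.53% of all genes were raised, and 1 by DESeq2 (H2-D1). At an unadjusted p under 0.05 the count raised was 2 (H2-D1 and Nlrc5), where 17.6% of all genes were raised.

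Erap1 stood at 45.9, 45.4, 42.9 and 47.7 CPM with butyrate, against 74.4 CPM or more in control. It fell by 0.74 ± 0.04 on the log2 scale, to 0.599 of control (edgeR adjusted p = 1.6e-12). Tapbp stood at 114, 105.0, 104.6 and 105.2 CPM, against 148 CPM or more in control, and fell by 0.56 ± 0.05, to 0.680 of control (edgeR adjusted p = 3.5e-09). The order of the 4 conditions was the same for both genes, butyrate lowest, then control, the combination and IL-1β, and no neighbours in that order overlapped. The leukocyte marker sum was 17.4 to 28.2 CPM with butyrate and 21.9 to 32.2 CPM in control, and these ranges overlapped. The duct marker sum was 335 to 355 CPM with butyrate and 358 to 387 CPM in control, without overlap. The sums of 8 endothelial markers (16.7 to 18.5 and 13.4 to 14.9 CPM) and of the 10 T and NK cell markers (5.173 to 5.774 and 4.107 to 5.17 CPM) were higher with butyrate, also without overlap. Of the markers tested, 0 of 5 duct, 0 of 7 endothelial and 1 of 4 T and NK cell markers were called. The part of these cells in the levels of Erap1 and Tapbp was not tested.

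Among the heavy chains H2-D1 stood at 311, 278, 277 and 274 CPM with butyrate, all above its highest control at 265 CPM. Its log2 difference of 0.16 ± 0.05 had an edgeR adjusted p of 0.017, and 5 of 23 alternatives called it raised. H2-K1 stood at 455, 415, 439 and 415 CPM (log2 0.07, 95% interval -0.03 to 0.17, edgeR adjusted p = 0.29). H2-T23 stood at 49.1, 45.2, 43.8 and 37.5 CPM (log2 0.07, interval -0.11 to 0.24, edgeR adjusted p = 0.60), and B2m at 17.4, 17.5, 18.3 and 18.1 CPM (log2 0.14, interval -0.02 to 0.30, edgeR adjusted p = 0.18). These last 3 overlapped control.

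Nlrc5 stood at 1.11, 0.622, 0.784 and 1.12 CPM with butyrate, overlapping control, and at 14 to 26 counts a library its log2 difference of 0.54 ± 0.25 could not be told from 0 at the threshold used (edgeR adjusted p = 0.12). Tap1 stood at 13.4, 13.1, 11.2 and 11.7 CPM (log2 -0.16 ± 0.09, edgeR adjusted p = 0.17) and Tap2 at 23.1, 22.2, 18.5 and 20.5 CPM (log2 0.03 ± 0.06, edgeR adjusted p = 0.79). Pdia3 stood at 1438, 1392, 1523 and 1458 CPM, each under the lowest control at 1572 CPM, with a log2 difference of -0.14 ± 0.05 (edgeR adjusted p = 0.054). Of 23 alternatives, 2 called it lowered.

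Whether butyrate acted differently in the presence of IL-1β was tested as an interaction. The count of members past the threshold was 0 in either direction, also by DESeq2. Of all genes tested, 0.043% and 0.0538% passed upwards and downwards by edgeR. At an unadjusted p under 0.05, 1 member was up and 2 were down, beside 3.78% and 3.55% of all genes. B2m was 0.14 higher with butyrate in the absence of IL-1β and 0.24 lower in its presence on the log2 scale, a difference of -0.38 ± 0.10 (edgeR adjusted p = 0.14). Over 22 alternatives its adjusted p lay between 0.0049 and 0.30, and 1 of them passed the threshold. That was the fit with the replicate number as a block (log2 -0.38, edgeR adjusted p = 0.0049), so the call for B2m depends on whether the numbers are treated as pairs. For Erap1 the difference was 0.14 ± 0.06 (adjusted p = 0.62) and for Tapbp 0.12 ± 0.07 (adjusted p = 0.80), with 95% intervals of 0.01 to 0.26 and -0.03 to 0.26.

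Read the other way, IL-1β raised 9 of the 10 members in islets that also had butyrate, where 9.92% of all genes tested were raised. Tapbp rose 1.96-fold (log2 0.97 ± 0.05, edgeR adjusted p = 1.9e-14), Erap1 1.86-fold (0.89 ± 0.04, 6.6e-15), B2m 2.21-fold (1.14 ± 0.07, 1.4e-12) and Nlrc5 2.75-fold (1.46 ± 0.20, 3.1e-06). Tap1 was called in this comparison, 1.28-fold higher (log2 0.35 ± 0.09, edgeR adjusted p = 0.0031), with every combination library above every butyrate library. Its call was lost without combination replicate 3 (adjusted p = 0.010) or 4 (0.015) and without butyrate replicate 3 (0.017) or 4 (0.015), over a range of 5.1e-05 to 0.017 for all 23 alternatives. The count lowered was 0, also at an unadjusted p under 0.05 and by DESeq2, where 4.86% of all genes were lowered by edgeR. Pdia3 was again not called (log2 -0.03, adjusted p = 0.75).

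Around the 10 members, 5 genes of the peptide-cutting step were followed, and the standard proteasome subunits were not among them. The immunoproteasome subunits, which replace the standard catalytic subunits and change which peptides are made, and the PA28 activator were all raised by IL-1β, 5 of 5 beside 11.2% of all genes tested, with a median log2 fold change of 0.96. Psmb10 stood at 13.3 ± 0.754 CPM in control and 34.5 ± 3.60 CPM with IL-1β (SD, n = 4), and Psmb8 at 7.18 ± 0.754 and 18.5 ± 1.90 CPM. Psmb9, whose upstream window is nearly that of Tap1 printed earlier, rose 1.95-fold (log2 0.96 ± 0.09, edgeR adjusted p = 7.0e-09), beside 0.23 ± 0.08 for Tap1.

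All 5 were lowered when butyrate was added to IL-1β, beside 11.1% of all genes tested, with a median log2 fold change of -0.40. Psmb10 fell by 1.19 ± 0.07 on the log2 scale to 15.1 ± 0.973 CPM (edgeR adjusted p = 3.2e-12), and Psmb9 fell by 0.50 ± 0.09 (edgeR adjusted p = 0.00011), beside -0.04 for Tap1. With butyrate alone 4 of 5 were lowered, beside 11.4% of all genes tested, Psmb10 to 4.73 ± 0.554 CPM (log2 -1.49 ± 0.10, edgeR adjusted p = 5.3e-12), and Psmb9, named after its values were seen, was the one not called (log2 -0.36 ± 0.11, edgeR adjusted p = 0.011).

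Other heavy chains and class I-like genes gave a mixed picture, with 14 of 19 tested and a median log2 fold change of 0.07 for IL-1β. IL-1β raised 3 of the 14 (11.2% of all genes tested were raised), H2-Q6 4.13-fold (from 8 to 16 counts per control library), H2-Q7 1.97-fold and H2-Q4 1.65-fold, and lowered 2 (6.59% of all genes), H2-Q2 (log2 -0.44) and the iron regulator Hfe (log2 -0.25). Butyrate added to IL-1β raised 3 of the 14, beside 8.41% of all genes tested. Mr1, which presents vitamin B metabolites to MAIT cells, rose 3.23-fold from 7.21 ± 1.25 to 23.5 ± 1.13 CPM (edgeR adjusted p = 1.8e-10), H2-Q7 1.87-fold and H2-Q6 1.76-fold. Butyrate alone raised 4 of the 14, beside 8.53% of all genes tested, Mr1 3.16-fold, H2-Q6 2.14-fold, H2-Q7 1.91-fold and Hfe 1.17-fold. H2-Q4, H2-Q6 and H2-Q7 share 36.4%, 35.0% and 26.5% of their 50-base stretches with other genes, so that their separate values are uncertain. Gm11131 also overlaps 19.1% of the exon length of H2-Q4 on the opposite strand.

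Of 12 other loading and trimming genes, IL-1β raised 3, Tapbpl (log2 0.46 ± 0.05), Npepps (0.23 ± 0.04) and Blmh (0.18 ± 0.05), beside 11.2% of all genes tested. Tapbpl, the tapasin relative TAPBPR that edits peptides outside the loading complex, was the only one of the 12 lowered when butyrate was added to IL-1β (log2 -0.53 ± 0.05, edgeR adjusted p = 2.7e-09), and the only one lowered by butyrate alone (log2 -0.78 ± 0.05, edgeR adjusted p = 5.0e-12). Against 11.1% and 11.4% of all genes tested that were lowered in these comparisons, 1 of 12 is no more than the background share. Its means were 59.8 ± 3.02 CPM in control, 82.3 ± 4.80 with IL-1β, 56.8 ± 1.42 with both and 34.7 ± 0.790 with butyrate (SD, n = 4), with butyrate lowest and IL-1β highest as for Erap1 and Tapbp. The lectin chaperone Canx was raised in both comparisons (log2 0.19 ± 0.05 with IL-1β present and 0.30 ± 0.05 without), and Npepps by butyrate alone (0.20 ± 0.04).

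**Figure D3:**
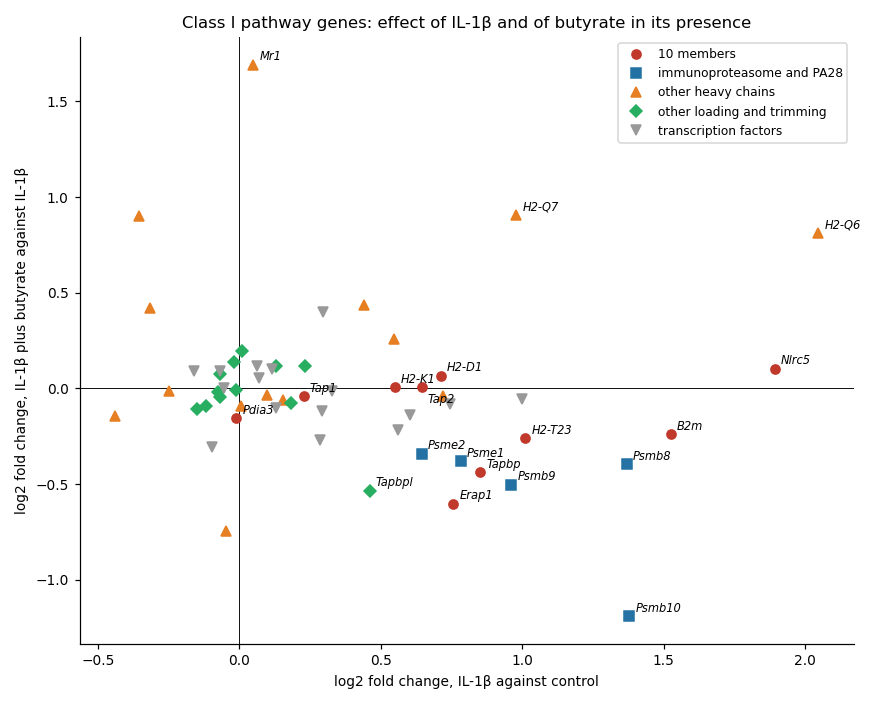
Log2 fold change with IL-1β against control (horizontal) and with IL-1β plus butyrate against IL-1β (vertical) of the tested genes of 5 class I lists, 1 point per gene, with the members, the immunoproteasome and PA28 genes and 4 others named; both axes share the IL-1β libraries. Erap1 and Tapbp lie with the 5 immunoproteasome and PA28 genes at the lower right, H2-K1, H2-D1, Tap2 and Nlrc5 lie near 0 on the vertical axis, and Mr1 is highest at 1.69.

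Transcription factors known to act on class I genes were raised by IL-1β in 7 of 16 cases, beside 11.2% of all genes tested, with a median log2 fold change of 0.21. Irf8 rose by 1.00 ± 0.20 on the log2 scale, Irf1 by 0.74 ± 0.05 and Irf9 by 0.60 ± 0.06. Adding butyrate lowered 2 of 16, a share near the 11.1% of all genes tested, Nfyc (-0.31 ± 0.07), a subunit of the CCAAT-binding factor, and Rfx5 (-0.27 ± 0.05), a subunit of the X-box-binding factor. Butyrate alone lowered 3 of 16, beside 11.4% of all genes tested, Rfx5 (-0.31 ± 0.05), Nfyc (-0.29 ± 0.07) and Irf1 (-0.24 ± 0.05). Of 10 interferon ligands none had enough counts to be tested, and Ifng, the best-known inducer of class I, had 1 to 11 counts per library over the 16 libraries, so that differences in it were not detectable at this depth.

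The members' median profile, taken over the 16 libraries after centring each gene on its own mean log2 CPM, stood between -0.38 and -0.25 in control, 0.38 and 0.55 with IL-1β, 0.25 and 0.32 with both, and -0.44 and -0.20 with butyrate. Tap2 lay nearest to it among the members, with a root mean square difference of 0.0719 on the log2 scale. H2-D1 came next, with 0.102, and Nlrc5 lay farthest, with 0.568. Among the other genes tested, the 5 nearest by that measure over 16 libraries were Ctsl (0.0747), a lysosomal protease, Ifngr1 (0.0822), a chain of the interferon gamma receptor, Spint1 (0.0852), Adam10 (0.0859) and Itm2b (0.0899). All 5 lay nearer to the median profile than every member except Tap2.

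**Figure D4:**
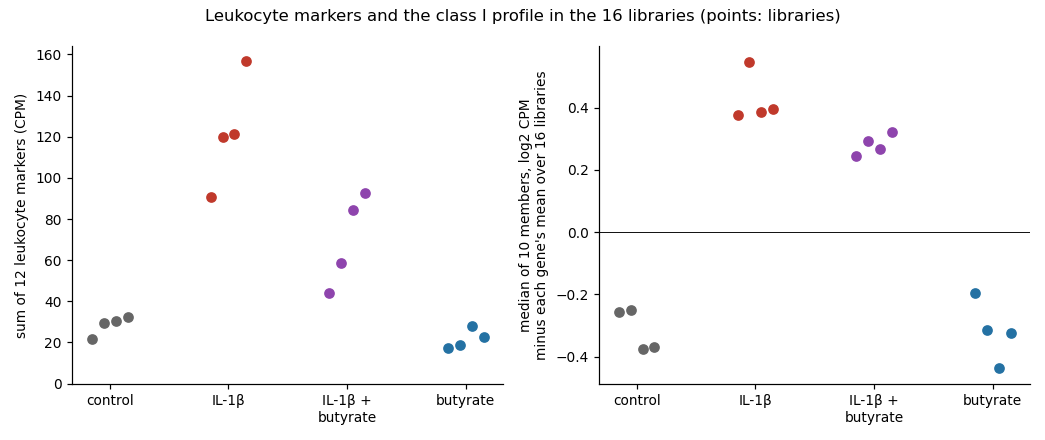
Left, the summed CPM of 12 leukocyte markers, and right, the median over the 10 class I members of log2 CPM minus each gene's mean over the 16 libraries, by condition; points are libraries. Leukocyte markers reach 90.7 to 157 CPM with IL-1β and 44.0 to 92.7 CPM with both, while the class I profile stays above 0 in all 8 libraries with IL-1β and below 0 in the 8 without it.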

How the data were processed

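Single-end RNA-seq libraries were made from total RNA of 16 islet cultures. Per the submitters' processing notes, the authors used bcl2fastq 2.19.1, FastQC 0.11.7, MultiQC 1.7, STAR 2.5.3a and the mouse genome GRCm38.p5 (mm10), and they deposited unnormalized counts per Ensembl gene for all 16 libraries. The annotation release, the strand setting and the handling of reads that match several genes are not given in the sources used here. Gene symbols and positions came from GENCODE M21, which held 52489 of the 52636 genes.

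The counts were fitted in 1 model of the 4 conditions with edgeR 4.0.16 in R 4.3.3 (TMM scaling, filterByExpr by condition, robust quasi-likelihood F test). Genes with an adjusted p (Benjamini-Hochberg, over all 18587 tested) under 0.01 were called raised or lowered. All tests were two-sided, and standard errors and 95% intervals are those of the log2 fold change. Fold changes are on the model's scale, levels are TMM-scaled CPM or, between genes, RPKM over the union of exons. The fit was tested on simulated counts. The alternatives were DESeq2 1.42.0, other scalings, no filter, a replicate block, the compared conditions alone, a threshold of 0.05 and leaving out each library. No 2 libraries of a condition agreed within sampling noise. From each pathway list, at most the 4 called genes with the largest change were named per comparison, and Psmb9 beyond that rule; 1 gene that the rule would name is not reported here. The members and lists were chosen with earlier results of these data known.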

Additional observations from a re-analysis of the deposited data

Results flagged for a closer look

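Within 5 of the 40 groups of 4 libraries (10 members in 4 conditions), 1 library stood far from the other 3 by Dixon's test at the 95% level, where chance gives about 1 in 20. B2m was 34.4 CPM in replicate 1 of IL-1β plus butyrate and 40.8 to 41.6 CPM in the others. H2-D1 was 311 CPM in replicate 1 of butyrate and 274 to 278 CPM in the others. Tapbp was 114 CPM in that same butyrate library and 104.6 to 105.2 CPM in the others. H2-T23 was 98.4 CPM in replicate 2 of IL-1β and 78.2 to 81.5 CPM in the others. Pdia3 was 1654 CPM in replicate 2 of control and 1572 to 1582 CPM in the others.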

How the results depend on the processing

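The 8 members raised by IL-1β, and the falls of Erap1 and Tapbp with butyrate in both settings, were called in each of the 23 alternative analyses of each fold change. At a threshold of 0.05 Tap1 was raised by IL-1β as well (edgeR adjusted p = 0.047). The count of members lowered when butyrate was added to IL-1β was 5 with no filter on low counts, with the replicate block and at a threshold of 0.05, with H2-T23 and Pdia3 added, and 2 to 4 when 1 library was left out. By DESeq2 it was 4, with H2-T23 added. The count raised by butyrate alone was 1, H2-D1, with upper-quartile scaling, the replicate block, the compared conditions alone, DESeq2 and a threshold of 0.05, and 0 to 1 over the analyses without 1 library. The count lowered by the combination against control was 1, Pdia3, with no filter, the block, the compared conditions alone, DESeq2 and a threshold of 0.05, and again 0 to 1 without 1 library. For butyrate alone, Pdia3 was called lowered with library size as the only scaling (edgeR adjusted p = 0.0043) and with no filter (0.009). In these the cause was not tested.

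Library numbers were not taken as pairs in the main fit. Deviations from the condition means were correlated over 0.1 in 17 of 24 pairs of libraries with the same number in different conditions (0.053 to 0.397, median 0.118). Among pairs with other numbers this held for 6 of 72 (-0.293 to 0.170, median -0.040), and 13 of 16 libraries correlated best with one of their own number. Libraries of the same number thus tended to deviate alike, which the main fit leaves out. With the replicate block the interaction gave 1 member lowered, B2m (log2 -0.38, edgeR adjusted p = 0.0049, against 0.14 without the block, with B2m past the threshold in 1 of 22 alternatives), and, beside the calls of H2-T23, Pdia3 and H2-D1 named earlier, it changed no other call of a member.

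Only fold changes that did not pass the threshold turned sign. With library size as the only scaling, the log2 fold change of Pdia3 was 0.0485 for IL-1β against control, 0.0660 for IL-1β in the presence of butyrate and 0.0175 for the interaction, and that of Tap2 was 0.0162 for the interaction. With no filter, Pdia3 was at 0.00127 for IL-1β and H2-K1 at -0.00243 for butyrate added to IL-1β, and with upper-quartile scaling Tap1 was at 0.00695 there. Without 1 library, Pdia3 ran from -0.0430 to 0.0473 for IL-1β and from -0.0816 to 0.0086 for the interaction. H2-K1 ran from -0.0333 to 0.0493 and Tap2 from -0.0229 to 0.0397 for butyrate added to IL-1β. Tap2 ran from -0.0187 to 0.0815 for butyrate alone and from -0.0724 to 0.0277 for the interaction. Counts per library limit Nlrc5 the most among the members.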
